A study of Mus musculus with 72 samples.

Results

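The 10 genes described here build, cross-link and turn over the actin cytoskeleton, and several are classical targets of the transcription factor SRF: Actb, Actg1, Tpm1, Tpm3, Tpm4, Flna, Myh9, Tagln2, Cnn2 and Cfl1. They were chosen by symbol, and all 10 were found among the 49568 genes counted. RNA was measured in macrophages grown from the bone marrow of male C57BL/6 mice aged 3 to 6 months that carry Per2::Luc, in which the clock gene Per2 is joined to a luciferase reporter, and every library comes from this one genotype. Progenitors were differentiated for 6 days with M-CSF, a growth factor on which macrophages depend, and then received a serum shock, a treatment with serum that brings the circadian clocks of a culture into step. Libraries were made every 2 h from 16 h to 62 h afterwards in each of 3 time courses, which gives 72 libraries at 24 time points with 3 at each. No unshocked group was analysed here, so every change below is relative to the first samples, at 16 h or 16-20 h. Whether the 3 courses are separate animals or cultures is not stated, so the p-values rest on a spread between samples that may be only technical.

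Actin exists as single subunits and as filaments that grow, branch, contract and are taken apart. Free actin subunits bind the coactivators MRTF-A (gene Mkl1) and MRTF-B (Mkl2) and hold them out of the nucleus; when subunits are used up in filaments, the coactivators enter the nucleus and join SRF at a DNA element called the CArG box, which stands before many genes of the actin cytoskeleton. SRF also works with a second family of partners, the ternary complex factors, at immediate early genes such as Egr1. Macrophages use actin to spread, to crawl and to engulf particles.

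The promoters of the members bear on this background, since a CArG box can be looked for in the sequence. Promoters from 250 bases before to 50 bases after the start were available from RefSeq (GRCm38.p6) for 9 of the 10 genes, with 2 for Tpm3, and Actb had no entry. The CArG box was searched on both strands, on which it reads the same. An exact match stood in the promoters of Actg1 and Cnn2, and 1.63% of all 32851 promoters of the table hold it. With up to 1 mismatch, a match stood in 7 of the 10 member promoters, the 2 of Tpm3 among them, and 21.1% of all promoters hold that looser form. Since the genes were picked in part as SRF targets, these shares do not test a role of SRF in the time courses. Both exact matches are shown with the CArG box in capitals, together with the looser matches of Flna and Tpm1, the members that were the first and, Cnn2 aside, the last to be lower than at 16 h, and with the exact matches of Srf itself and of Vcl, a well-known SRF target outside the 10 genes.
Actg1: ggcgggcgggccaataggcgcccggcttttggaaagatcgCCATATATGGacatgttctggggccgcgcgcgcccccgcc
Cnn2: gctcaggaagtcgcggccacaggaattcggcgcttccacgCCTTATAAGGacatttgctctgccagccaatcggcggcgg
Flna: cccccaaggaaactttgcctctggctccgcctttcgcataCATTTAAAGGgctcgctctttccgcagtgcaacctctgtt
Tpm1: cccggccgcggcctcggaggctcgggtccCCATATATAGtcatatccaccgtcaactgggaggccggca
Srf: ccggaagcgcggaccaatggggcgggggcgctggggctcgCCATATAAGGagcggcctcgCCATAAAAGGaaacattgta
Vcl: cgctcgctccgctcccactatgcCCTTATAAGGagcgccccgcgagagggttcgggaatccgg
The Actg1 stretch lies on the minus strand at chr11:120348546-120348625, with the box 90 to 81 bases before the start. The Cnn2 stretch lies on the plus strand at chr10:79988504-79988583, with the box 56 to 47 bases before the start. The Flna stretch is chrX:74246539-74246618 (minus strand), the Tpm1 stretch chr9:67049395-67049463 (minus strand), the Srf stretch chr17:46556205-46556284 (minus strand) and the Vcl stretch chr14:20929148-20929210 (plus strand). A match is a string of letters and was not tested for binding.

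Libraries held 45309360 to 67839053 counts assigned to genes (median 55040063), and 17903 genes were tested. Levels are given in CPM, the usual scaling of counts to the total assigned to genes in a library, and log2 changes come from edgeR's quasi-likelihood test after TMM scaling, with Benjamini-Hochberg adjusted p-values over all of these genes. In 5 libraries the typical gene lay farther from the other courses at that time than in the rest: course 1 at 40 h and 56 h, course 2 at 22 h and 60 h, and course 3 at 60 h. All 7 markers of macrophages were measured and summed to 15575 to 26208 CPM per library; 2 of them were higher at 58-62 h than at 16-20 h (Csf1r and Mertk) and 2 lower (Itgam and Adgre1). Defining markers of neutrophils (Ly6g, Elane, Mpo, Camp), T lymphocytes (Cd3e) and erythroid cells (Hba-a1) had medians under 0.05 CPM in these windows. Other genes of these lists moved: Pf4, a platelet chemokine, had 33.9 ± 12.6 CPM at 58-62 h and 243 ± 25 CPM at 16-20 h (-2.78 ± 0.18, adjusted p = 1.93e-19), Ppbp and the neutrophil gene S100a8 were lower at levels under 2 CPM, and all 3 osteoclast markers tested were lower (Acp5, Ctsk and Dcstamp). S100a9, the other neutrophil gene tested, was higher (1.85 ± 0.68, edgeR adjusted p = 0.0143), from a median under 0.05 CPM at 16-20 h. The part of all these genes in the results was not tested. The 9 markers of fibroblasts and stroma summed to 2.51 to 92.6 CPM (median 57.3) at 58-62 h, against 35.04 to 209 CPM (median 107) at 16-20 h, with Lum and Thy1 under 0.05 CPM in the median of every window.

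At 16 h Actb, the cytoplasmic β-actin gene, held 1.22% ± 0.03 of all counts assigned to genes (SD, n = 3), with 1.19%, 1.25% and 1.22% in the 3 courses, and it ranked 3rd or 4th among all genes. The 20 h samples had a share of 0.985% ± 0.068 and the 24 h samples one of 0.680% ± 0.043. By 28 h it was 0.461% ± 0.018, and by 34 h 0.386% ± 0.002. The lowest mean, 0.381% ± 0.064, came at 40 h and rested on course 1 (0.318%), a library that stands apart; without the 5 such libraries the lowest mean was that of 34 h. At 62 h the share was 0.467% ± 0.043, with Actb ranked 12th to 19th. The γ-actin gene Actg1 held 0.0195% ± 0.0002 at 16 h, 0.00846% ± 0.00111 at 40 h and 0.00998% ± 0.00143 at 62 h. As counted, the share of these actins was thus that of Actb almost entirely (together 1.24% ± 0.03 at 16 h). Of the stretches of 100 bases in Actg1 transcripts, 29.9% also occur in other genes, against 0.644% for Actb. Reads from such stretches may be missing from the Actg1 counts, so its share may be too low. The 10 genes together held 1.68% ± 0.03 at 16 h, 0.570% ± 0.060 at 40 h and 0.662% ± 0.058 at 62 h. Actb made up 72.7% ± 0.9 of the counts of the 10 genes at 16 h, 65.5% ± 1.1 at 32 h and 70.5% ± 0.6 at 62 h. The exact (Clopper-Pearson) 95% interval of the Actb share in a single library was at most 0.00584 percentage points wide, which covers counting error only. A share cannot tell apart fewer cells of a type and less RNA per cell.

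**Figure D1:**
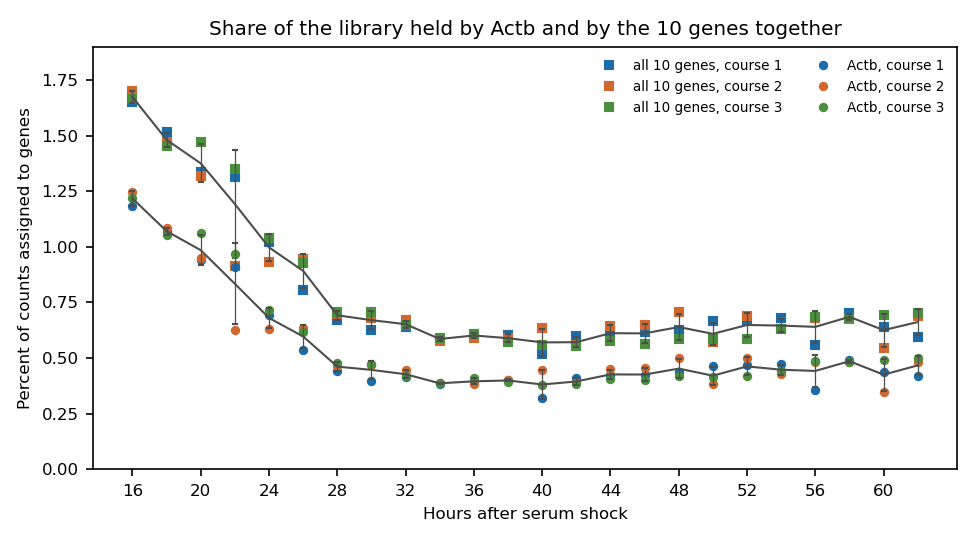
Percent of the counts assigned to genes (vertical axis) held by Actb (circles) and by all 10 genes together (squares) in each of 72 libraries, against hours after serum shock; colours are the 3 courses, lines join the means and bars are the SD of 3 libraries. Both curves drop steeply between 16 h and 28 h and stay between 0.38% and 0.49% for the mean of Actb from 28 h on.

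Nearly the whole set was lower after the first day. Against 16-20 h, 8 of the 10 genes were lower at 22-26 h, all but Tpm1 and Cnn2, where 17.5% of all genes tested were called lower. From 28-32 h on, 9 of 10 were lower in each window, all but Cnn2, against a background of genes called lower of 28.4% (28-32 h), 30.4% (34-38 h), 31.6% (40-44 h), 33.1% (46-50 h), 32.1% (52-56 h) and 32.3% (58-62 h). None was higher in any of the 7 windows by edgeR's quasi-likelihood test or by DESeq2, where the share of all genes called higher was 16.5% (22-26 h), 29.6% (28-32 h), 32% (34-38 h), 34.2% (40-44 h), 35.7% (46-50 h), 35.2% (52-56 h) and 35.5% (58-62 h). At an unadjusted p under 0.05, 1 gene (Cnn2, at 28-32 h) was higher. The median log2 change over the 10 genes was -0.27 in the window of 22-26 h, where that over all genes was 0.01. It was -0.70 (all genes 0.04) in the next, -1.06 (all genes 0.05) by 40-44 h and -0.87 (all genes 0.04) in the last. The count at 22-26 h was 7 without course 1 and 6 without course 2. In a test of any difference among the 24 time points, 9 of 10 genes passed, against 68.5% of all genes. Scaling by library size alone in place of TMM moves the median of all genes by at most -0.11 (at 40-44 h), and it turned no sign among the 9 genes.

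Of the actins, Actb lies on chromosome 5 from 142903115 to 142906754 (GRCm38, as are all gene positions here). It ranged over 3484, 4829 and 4987 CPM (lowest, median and highest of 9 libraries) at 58-62 h, against 9395, 10714 and 12485 CPM at 16-20 h. Every library from 28 h on was below every library of 16-20 h. How common such a gap is over all genes was not counted, here or for the genes that follow. Actb averaged 4592 ± 498 CPM in the late window (58-62 h) and 10913 ± 1090 CPM in the early one (16-20 h; SD over 9 libraries, which span 3 time points), a log2 change of -1.14 ± 0.07 (SE, edgeR adjusted p = 1.02e-21). Actg1, on chromosome 11 from 120345690 to 120348542, had 81.7, 96.5 and 112 CPM at 58-62 h, against 165, 189 and 208 CPM at 16-20 h, and again no library of the 2 windows overlapped. Its log2 change was -0.82 ± 0.07 (adjusted p = 6.90e-15). Of the stretches of 100 bases in Actg1 transcripts, 29.9% also occur in transcripts of other genes, most of them in the pseudogene Gm12715 (26%), so its counts are uncertain; for Actb the share is 0.644%. Per kilobase of exon at 16-20 h, Actb stood at 4074 CPM and Actg1 at 69.4 CPM.

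The tropomyosins wind along actin filaments and set which other proteins may bind there. Tpm4, on chromosome 8 from 72134975 to 72153142, had 128, 140 and 153 CPM at 58-62 h, against 347, 375 and 465 CPM at 16-20 h. Its log2 change of -1.37 ± 0.07 (adjusted p = 1.08e-24) was the largest of the 3 tropomyosins listed. Tpm3, on chromosome 3 from 90072649 to 90100902, had 304, 329 and 341 CPM at 58-62 h, against 483, 564 and 626 CPM at 16-20 h, with a log2 change of -0.68 ± 0.05 (adjusted p = 3.05e-19). Tpm1, on chromosome 9 from 67022590 to 67049406, had 42.4, 47.9 and 58.3 CPM at 58-62 h, against 84.4, 94.2 and 106 CPM at 16-20 h, with a log2 change of -0.89 ± 0.07 (adjusted p = 6.24e-16). In none of the 3 genes did a library of 58-62 h reach the lowest library of 16-20 h. At 16-20 h the level per kilobase of exon was 180 CPM for Tpm4, 92.7 CPM for Tpm3 and 14.7 CPM for Tpm1. Of the Tpm3 stretches of 100 bases, 15.8% also occur in Tpm3-rs7, and of those of Tpm4 9.22% occur in other genes, so part of their counts cannot be placed with certainty.

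Filamin A (Flna) cross-links filaments into networks and ties them to the membrane. It lies on chromosome X from 74223461 to 74249820, and had 364, 432 and 460 CPM at 58-62 h, against 935, 1168 and 1450 CPM at 16-20 h. The windows did not overlap, and the log2 change was -1.35 ± 0.06 (adjusted p = 4.00e-25). Myh9, the heavy chain of nonmuscle myosin IIA, the motor that pulls on filaments, lies on chromosome 15 from 77760587 to 77842175. It had 281, 358 and 428 CPM at 58-62 h, against 427, 496 and 582 CPM at 16-20 h, so that the highest late library just reached the lowest early one. Its log2 change of -0.38 ± 0.06 (adjusted p = 1.44e-07) was the smallest of the 9 genes called.

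Transgelin 2 (Tagln2) is a calponin-family protein that binds and stabilises filaments, and of the 10 genes it had the largest change at 58-62 h. It lies on chromosome 1 from 172500047 to 172507380, and had 92.6, 108 and 113 CPM at 58-62 h, against 303, 336 and 380 CPM at 16-20 h, with a log2 change of -1.57 ± 0.07 (adjusted p = 1.41e-26). Cofilin (Cfl1), which severs filaments and returns subunits to the pool, lies on chromosome 19 from 5490455 to 5495201. It had 370, 492 and 524 CPM at 58-62 h, against 805, 924 and 1004 CPM at 16-20 h, with a log2 change of -0.85 ± 0.08 (adjusted p = 5.30e-14). Neither gene had overlapping windows. Exons of Snx32 on the other strand overlap 16.5% of the exon bases of Cfl1, and without a known strand setting reads of these genes cannot be told apart.

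**Figure D2:**
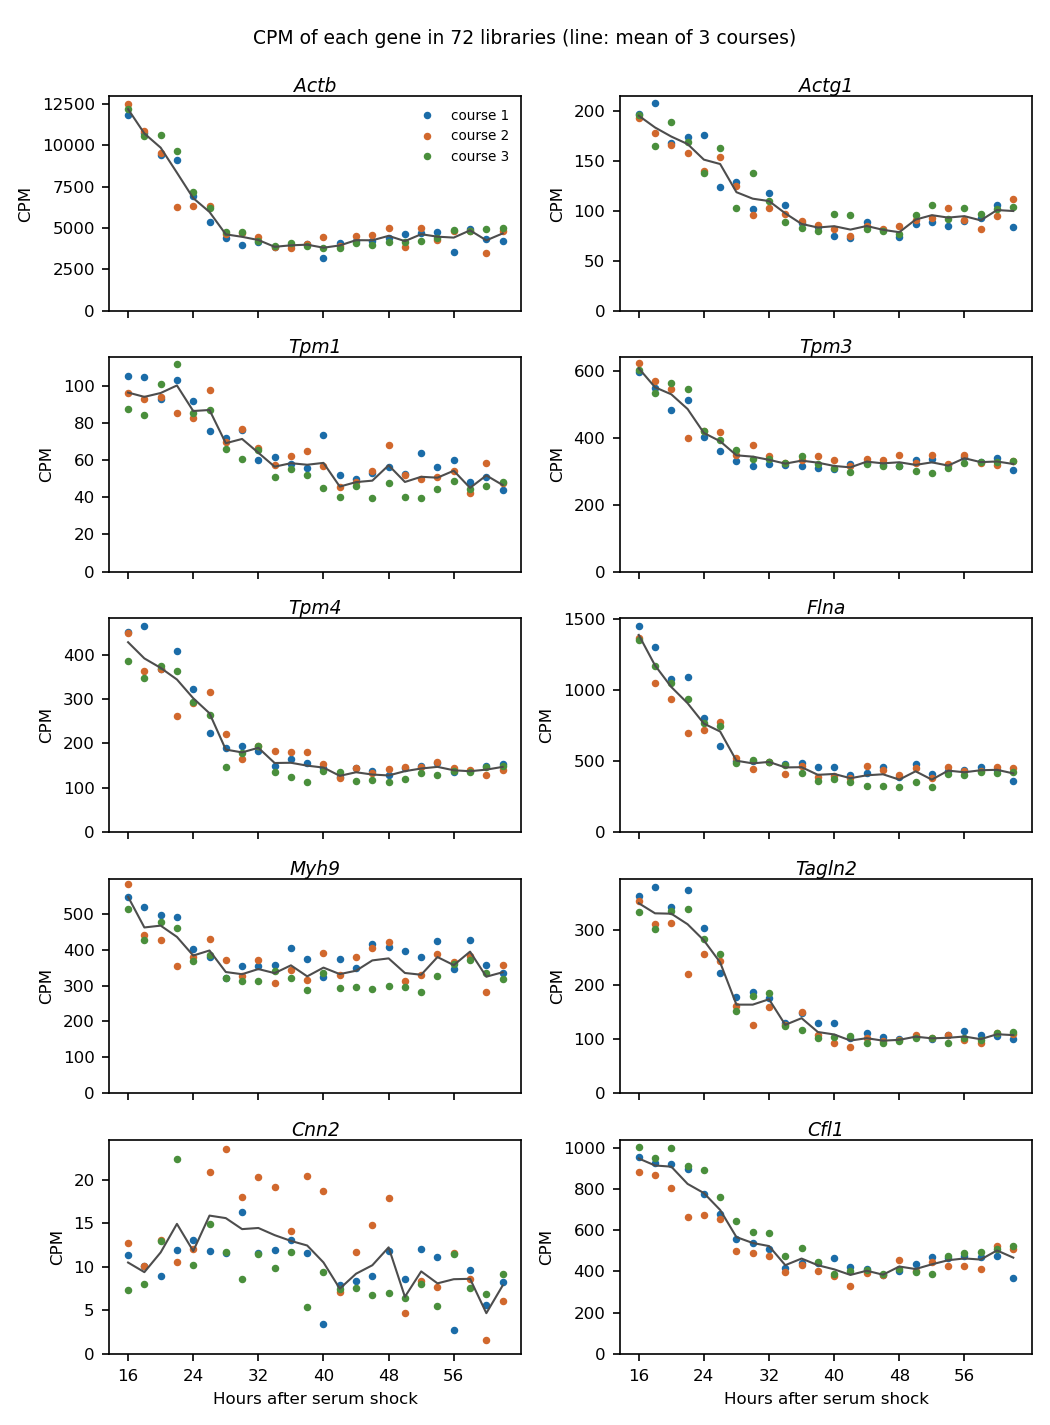
CPM of each of the 10 genes (vertical axes, each from 0) in 72 libraries against hours after serum shock; points are libraries coloured by course and the line joins the means of 3 courses. In 9 panels the libraries from 28 h on lie below nearly all of those of 16 h to 20 h, whereas the Cnn2 panel spreads over 1.64 to 23.5 CPM with no such drop.

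Cnn2, calponin 2, which binds actin and slows the myosin motor, gave no call in any window. It lies on chromosome 10 from 79988584 to 79996062 and was the lowest of the 10 per kilobase of exon (4.27 CPM at 16-20 h). It had 1.64, 7.54 and 9.68 CPM at 58-62 h, against 7.40, 10.1 and 13.1 CPM at 16-20 h, and the lowest library, course 2 at 60 h, holds 91 counts. The windows overlap, and the log2 change of -0.52 ± 0.25 missed the threshold (adjusted p = 0.0606); with scaling by library size alone it passed (adjusted p = 0.0340). At 28-32 h Cnn2 had 8.62, 11.7 and 23.5 CPM and a log2 change of 0.54 ± 0.25 against 16-20 h (adjusted p = 0.0578), which passed without the 5 libraries that stand apart (0.52, adjusted p = 0.0179). Against 16 h alone it was lower at 60 h only (log2 change -1.02 ± 0.44, adjusted p = 0.0480), a time point at which 2 of 3 libraries stand apart, and without those 5 libraries at no time.

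Within a time point, Cnn2 went with stromal markers. Each library's deviation from the mean of its time point in Cnn2 correlated with that of the summed fibroblast and stroma markers at r = 0.90 over 72 libraries, which share depth and scaling within a library. For the other 9 genes r lay between -0.32 (Cfl1) and 0.51 (Myh9), with 0.46 for Tpm4, 0.42 for Actb and 0.01 for Flna. The SD of these deviations was 0.47 for Cnn2 and 0.08 to 0.14 for the others, on the log2 scale. The part of the stromal markers in the levels of these genes was not tested. The smooth muscle markers Acta2, Tagln, Actg2 and Cnn1 had r of 0.96, 0.95, 0.91 and 0.83 with the same sum, and the 6 smooth muscle markers together summed to 2.36 to 26.1 CPM at 58-62 h, against 17.6 to 57.9 CPM at 16-20 h. Among pairs of the 10 genes, the deviations of Actb and Tpm3 were the most alike (r = 0.65), followed by Flna with Myh9 (0.60) and Flna with Tagln2 (0.57).

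**Figure D3:**
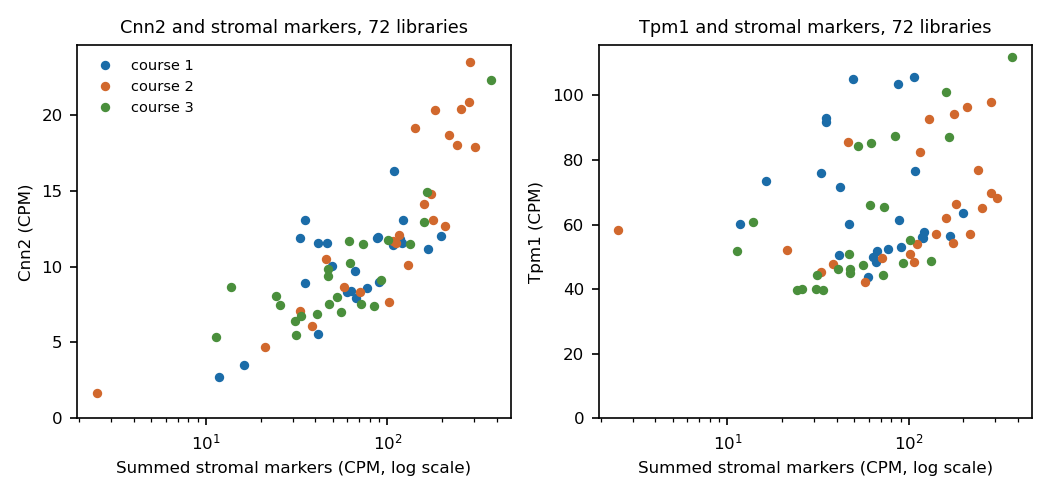
CPM of Cnn2 (left) and Tpm1 (right) in 72 libraries against the summed CPM of 9 fibroblast and stroma markers on a log axis, coloured by course. Cnn2 climbs with the markers, from 1.64 CPM in the library with the lowest sum (2.51 CPM), where Tpm1 had 58.3 CPM. Over time, which the colours do not mark, Tpm1 ran from 84.4 to 106 CPM at 16-20 h and from 42.4 to 58.3 CPM at 58-62 h.

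The time point at which a gene was first called lower than at 16 h differed between genes, which were not tested against each other. At 18 h no gene of the 10 was lower than at 16 h by edgeR, where 0.0112% of all genes were, and 1 (Myh9) had an unadjusted p under 0.05. None was higher than at 16 h at any time point, with no unadjusted p under 0.05 in that direction either; the share of all genes called higher was 0.067% at 18 h, 4.64% by 22 h, 13.3% by 24 h, 25.1% by 34 h and 27.7% in the last samples. Flna was lower from 20 h on (0.570% of all genes lower), with a log2 change of -0.45 ± 0.11 (adjusted p = 0.0182). Actb, Tpm3 and Myh9 were lower from 22 h on (4.47%), Actg1 and Tpm4 from 24 h (12.8%), Tagln2 and Cfl1 from 26 h (16.8%) and Tpm1 from 28 h (21.2%), and each stayed lower at every later time point. Course 2 at 22 h stands apart, with 0.627% of counts in Actb where the other courses had 0.909% and 0.966%. Without the 5 libraries Actb was lower from 20 h and Tpm3, Myh9 and Tagln2 from 24 h, while the first times of the other 5 genes did not move. The time at which 50% of the way from the 16 h level to the mean of 40-44 h had been covered, read in each course, was 22.2 ± 1.5 h for Flna, 22.4 ± 1.5 h for Actb and 22.5 ± 1.3 h for Tpm3 (SD, n = 3). It was 24.0 ± 2.4 h for Tpm4, 24.8 ± 2.5 h for Tagln2, 25.4 ± 1.8 h for Actg1, 26.4 ± 0.7 h for Cfl1 and 27.0 ± 1.6 h for Tpm1. Myh9 came first in the mean, at 21.2 ± 3.2 h, with a spread over courses wider than its distance to the next genes. Without the libraries that stand apart, the time was 22.3 ± 1.3 h for Flna, 22.6 ± 1.0 h for Actb, 22.9 ± 0.6 h for Tpm3 and 24.8 ± 1.2 h for Tpm4. Tagln2 then came later, at 26.3 ± 0.6 h, beside Cfl1 at 26.4 ± 0.6 h. Neighbours in this order lie within the wider SD of the pair, except Tpm3 and Tpm4 without the libraries that stand apart. Flna, Actb and Tpm3 lie apart from Cfl1 and Tpm1 by more than their SDs. Tpm1 stayed at its starting level longest, with 100.2 ± 13.4 CPM at 22 h and 96.4 ± 9.1 CPM at 16 h.

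**Figure D4:**
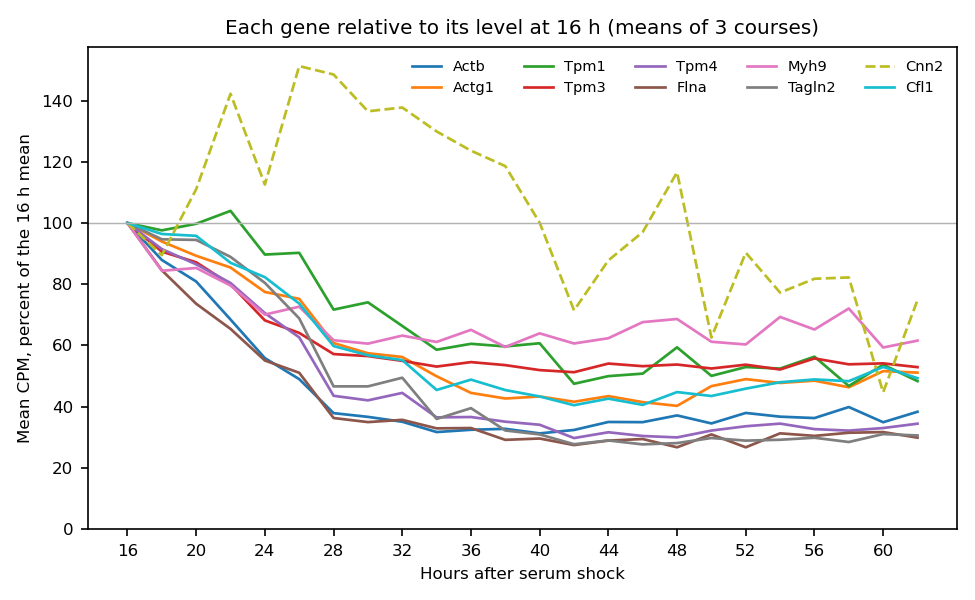
Mean CPM of each gene as percent of its 16 h mean (vertical axis) against hours after serum shock; each line is 1 gene, the mean of 3 courses, and Cnn2 is dashed. Flna and Actb leave 100% early, Tpm1 last among the 9 genes that dropped, and the lowest points then lie between 26.7% (Flna) and 59.3% (Myh9).

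How deep the fall went also differed. The lowest mean was 26.7% of the 16 h mean for Flna (371 ± 45 CPM at 52 h), 27.7% for Tagln2 (96.8 ± 5.9 CPM at 46 h) and 29.8% for Tpm4 (127 ± 7 CPM at 42 h). Actb reached 31.3% (3807 ± 635 CPM at 40 h), Actg1 40.3% (78.6 ± 5.6 CPM at 48 h) and Cfl1 40.5% (383 ± 47 CPM at 42 h). Tpm1 reached 46.7% (45.1 ± 3.0 CPM at 58 h), Tpm3 51.3% (312 ± 11 CPM at 42 h) and Myh9 59.3% (325 ± 39 CPM at 60 h). Without the 5 libraries that stand apart, the lowest mean of Actb moved to 34 h (3861 ± 24 CPM), that of Cfl1 to 40 h (383 ± 10 CPM, n = 2) and that of Myh9 to 38 h (326 ± 44 CPM), with values within the SD of those above. The hour of the minimum is thus poorly fixed in a level stretch, and the courses differ in it: in Flna, for example, it was 62 h, 52 h and 48 h.

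The steps between successive windows were used to follow the fall. At 28-32 h against 22-26 h, 9 of 10 genes were lower, all but Cnn2 (17.9% of all genes lower), by 0.70 ± 0.07 on the log2 scale for Tagln2 at most and 0.23 ± 0.06 for Myh9 at least. At 34-38 h against 28-32 h, 4 were lower (4.5% of all genes): Tagln2 (-0.37 ± 0.07), Actg1 (-0.31 ± 0.07), Cfl1 (-0.25 ± 0.08) and Tpm4 (-0.22 ± 0.07). That count was 2 without course 1 and 0 without course 3. At 40-44 h against 34-38 h, Tagln2 alone was lower by edgeR (-0.27 ± 0.07, adjusted p = 0.00695), a call lost when any 1 course was left out. In that step 4.45% of all genes were lower. At an unadjusted p under 0.05, 4 of the 10 were lower in it (Cnn2, Tagln2, Tpm1 and Tpm4). In the step before, 5 were, with Tpm1 beside those called. In the 3 later steps no gene of the 10 was lower or higher by edgeR or by DESeq2. In those steps 2.38%, 0.497% and 0.0279% of all genes were lower and 0.447%, 0.279% and 0% higher. At an unadjusted p under 0.05, 1 gene, Actg1, was higher in them (0.16 ± 0.07 at 52-56 h against 46-50 h). A p that misses the threshold does not show that levels stayed the same.

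A partial return was looked for by setting the last window against 34-38 h, which precedes it by a full day. This comparison was added after the values were seen, and its earlier window lies at the low point of Actb but before that of most other genes. A rise of Actb was thereby favoured in advance, so its p-values here do not test a return. Actb had 3484, 4829 and 4987 CPM (lowest, median, highest) at 58-62 h, against 3814, 3938 and 4086 CPM at 34-38 h, and its log2 change was 0.23 ± 0.07 (edgeR adjusted p = 0.00325), where 19.7% of all genes were higher. The libraries overlap, since course 2 at 60 h (3484 CPM) is the lowest of both windows and stands apart; without the libraries that stand apart the change was 0.23 (adjusted p = 7.26e-04), and leaving out a course gave 0.22 to 0.26 (adjusted p at most 0.0487). The level at 62 h was 38.3% of that at 16 h. In the same comparison 3 genes were lower (20.6% of all genes): Tpm1 (-0.25 ± 0.07, adjusted p = 0.00483), Tagln2 (-0.23 ± 0.07, adjusted p = 0.00453) and Cnn2 (-0.92 ± 0.25, adjusted p = 0.00244). The call for Tagln2 was lost without course 1 (adjusted p = 0.169) and that for Cnn2 without course 2 (adjusted p = 0.199). Actg1 (0.14 ± 0.07, adjusted p = 0.114), Cfl1 (0.12 ± 0.08, adjusted p = 0.209), Myh9 (0.07 ± 0.06), Tpm3 (0.01 ± 0.05), Tpm4 (-0.10 ± 0.07) and Flna (-0.01 ± 0.06) did not pass. Cfl1 and Actg1 were lowest after 34-38 h: relative to 16-20 h, the log2 change of Cfl1 was -0.85 at 58-62 h and -1.10 at 40-44 h, and that of Actg1 was -0.82 at 58-62 h and -1.04 at 46-50 h. These differences were not tested, since the lower windows were picked by their values. At 62 h the 9 genes other than Cnn2 stood at 29.9% (Flna) to 61.6% (Myh9) of their 16 h means.

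No 24 h rhythm passed the threshold in any of the 10 genes with a straight line for the trend (edgeR, 0 of 10, against 7.56% of all genes), and 4 (Actb, Flna, Myh9 and Tpm3) had an unadjusted p under 0.05. Tpm3 came closest, with a fitted amplitude of 0.11 on the log2 scale and a peak at 17.7 h modulo 24 h (adjusted p = 0.0529), followed by Actb with 0.19 and 18.5 h (adjusted p = 0.105). The count depended on the trend: it was 2 with a quadratic trend (Actb and Tpm3, against 11.8%), 0 with a spline (0.190%) and 9 with no trend term (21.6%). By edgeR's test of the interaction, a difference between courses in the change at 58-62 h against 16-20 h passed the threshold in none of the 10 genes (0 of 10, against 0.0279% of all genes), with 1 gene, Cfl1, at an unadjusted p under 0.05 (0.0263, adjusted p = 0.426). In Actb the log2 change was -1.15, -1.16 and -1.13 in the 3 courses. In Cfl1 it was -0.99, -0.65 and -0.90.

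The 10 genes were alike over time in different degrees. The Pearson r of a gene's 24 time-point means of log2 CPM with the mean of the other 9 genes was 0.99 for Tpm4, 0.98 for Flna, 0.97 for Tagln2 and Cfl1, 0.95 for Actg1, 0.94 for Tpm3 and 0.93 for Actb and Tpm1. It was 0.75 for Myh9 and 0.25 for Cnn2. The genes outside the set whose time course was most like the mean of the 10 were Ccne2, which encodes cyclin E2 (r = 0.99), Whsc1, a histone methyltransferase, Dnmt1, the maintenance DNA methyltransferase, Mcm3, a subunit of the replicative helicase, Nup155, a nucleoporin, Nap1l1, a histone chaperone, Hells, a chromatin remodeller, and Cbx5, which encodes HP1α. Their falls differed in depth: Ccne2 had 80.4 ± 11.9 CPM at 16 h, 3.48 ± 0.33 CPM at 40 h and 2.93 ± 0.27 CPM at 62 h, while Nup155 had 87.3 ± 7.2, 32.5 ± 3.9 and 33.2 ± 0.85 CPM at the same times. Such a time course was common, since 1168 of the 9285 genes compared (12.6%) had an r over 0.9. Compared were genes outside the set with a mean of at least 5 CPM. Predicted genes, Riken clones, pseudogenes and mitochondrially encoded genes were passed over by name. Most like Actb alone, a search added to the naming rule, were Cep41, Tfdp1, Cnp, Armc1, Ipo9, Ints8, Rab5c and Etv5, each with r of 0.99, over the same 24 time points. Rab5c, a GTPase of early endosomes, had 421 ± 16 CPM at 16 h, 225 ± 10 CPM at 40 h and 248 ± 22 CPM at 62 h.

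Other genes of the actin machinery were lower too, with exceptions in most groups. For each list the count is given at 58-62 h against 16-20 h, where 32.3% of all genes were lower and 35.5% higher. Of the Arp2/3 complex, which starts branches, 7 of 9 genes were lower and 1 higher (median log2 change -0.49). Arpc1b had 636 ± 66 CPM at 58-62 h and 1225 ± 36 CPM at 16-20 h (-0.84 ± 0.05, adjusted p = 9.09e-20). The higher gene was Arpc1a, the paralog of Arpc1b (0.13 ± 0.04, adjusted p = 0.00459), which did not pass with scaling by library size alone (0.02, adjusted p = 0.679). Of 14 genes that bind actin subunits or turn filaments over, 9 were lower and 2 higher (median -0.35). Among them thymosin β4 (Tmsb4x), the main store of free subunits in many cells, had 1793 ± 266 CPM at 58-62 h and 3503 ± 290 CPM at 16-20 h (-0.87 ± 0.08). Its relative Tmsb10 had 38.0 ± 14.6 and 126 ± 11 CPM at these times, and Cap1, a partner of cofilin, 283 ± 26 and 660 ± 52 CPM. The higher genes were the cofilin paralog Cfl2 (0.15 ± 0.05), which also did not pass with scaling by library size alone (0.05, adjusted p = 0.365), and the profilin paralog Pfn2 (0.57 ± 0.16).

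Of 7 capping and severing genes tested, 5 were lower and 1 higher (median -0.33). Gelsolin (Gsn), which severs and caps filaments, had 238 ± 20 CPM at 58-62 h and 791 ± 20 CPM at 16-20 h, with a log2 change of -1.63 ± 0.05 (adjusted p = 1.57e-31). Capg, a gelsolin relative of macrophages, had 408 ± 157 and 1128 ± 46 CPM at these times (-1.39 ± 0.12), while Capzb, the β subunit of capping protein, was higher (0.38 ± 0.04). Of 10 bundling and membrane-linking genes, 8 were lower and 1, Marcks, higher (median -0.74). Moesin (Msn), which links filaments to the membrane, had 360 ± 82 CPM at 58-62 h, against 886 ± 39 CPM at 16-20 h (-1.20 ± 0.09), and L-plastin (Lcp1), the bundling protein of blood cells, had 896 ± 85 and 1647 ± 77 CPM (-0.77 ± 0.06). Of 11 adhesion genes, 6 were lower and 1, zyxin (Zyx), higher (median -0.45), with talin (Tln1) at 708 ± 46 CPM at 58-62 h and 1213 ± 163 CPM at 16-20 h. Of 8 further filamin and nonmuscle myosin II genes tested, 6 were lower and 1, Myh10, higher (median -0.65).

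The tubulins, which form the other large filament system of the cell, were all lower (9 of 9, median -1.68, against -0.87 for the 10 actin-related genes). Tubb5 had 271 ± 48 CPM at 58-62 h and 1569 ± 104 CPM at 16-20 h (-2.42 ± 0.11, adjusted p = 1.59e-25). The difference between these lists was not tested.

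**Figure D5:**
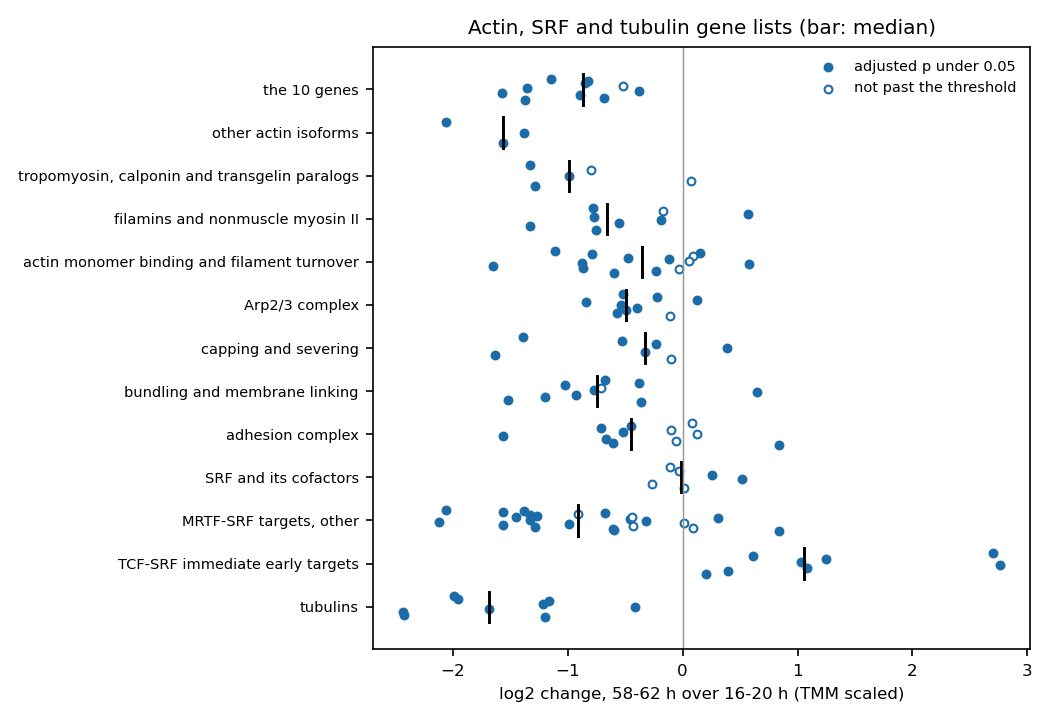
Log2 change at 58-62 h over 16-20 h (horizontal axis, TMM scaled) of every gene tested in each list shown, with filled points for an adjusted p under 0.05 and a black bar at the median of each list. The tubulins have the lowest median (-1.68), the TCF-SRF immediate early genes stand at 0.20 or above, and most other lists lie below 0.

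SRF and its partners were measured in the same windows. Srf had 28.5 ± 2.1 CPM at 58-62 h and 30.5 ± 2.1 CPM at 16-20 h, with a log2 change of 0.01 ± 0.06 (adjusted p = 0.896); of the 7 windows it was called lower in 1, at 46-50 h (-0.13 ± 0.06, adjusted p = 0.0460). Mkl1 was higher, at 89.2 ± 7.5 CPM at 58-62 h and 67.0 ± 10.9 CPM at 16-20 h (0.52 ± 0.10, adjusted p = 8.32e-06). Mkl2 had 53.1 ± 13.98 and 68.8 ± 9.97 CPM at these times (-0.27 ± 0.13, adjusted p = 0.0608), and was called lower in the 3 windows before, most at 46-50 h (-0.46 ± 0.13, adjusted p = 0.00162). Of 6 genes of this list tested, 0 were lower and 2 higher in the last window, Mkl1 and the ternary complex factor Elk4 (0.25 ± 0.04). Without the 5 libraries that stand apart, or with scaling by library size alone, 2 were lower as well. Deviations within time points correlated with the stromal marker sum at r of -0.69 for Mkl1, -0.70 for Mkl2, -0.56 for Elk4 and -0.21 for Srf. Over the 6 genes r ran from -0.70 to 0.36 (median -0.58). The part of the stromal markers in these calls was not tested.

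Of 23 further targets of MRTF and SRF, 16 were lower and 2 higher (median -0.91), but at 28-32 h 8 were lower and 1 higher (median -0.01, where 28.4% of all genes were lower and 29.6% higher). Many of these genes also count in other lists here, such as Actn1, Wdr1, Tes, Vcl and Zyx, so the counts are not separate evidence. The list holds genes of smooth muscle and stroma, and in 12 of the 23 the deviations within time points correlated with the stromal marker sum at r over 0.5, up to 0.98 for Tpm2. Of those 12 genes, 9 were lower at 58-62 h and 1 at 28-32 h; of the other 11, 7 were lower in each of these windows. The 7 at 58-62 h include Acta1, which had 0.038 ± 0.022 CPM there. The split was made after the values were seen, and it was not tested. Among the 11, the actin-filament disassembly factor Wdr1 had 320 ± 11 CPM at 58-62 h and 520 ± 32 CPM at 16-20 h (-0.59 ± 0.03), testin (Tes) 16.1 ± 4.9 and 50.7 ± 6.5 CPM (-1.56 ± 0.12), and α-actinin 1 (Actn1) 47.0 ± 8.2 and 81.2 ± 10.03 CPM (-0.67 ± 0.08). Vcl, whose promoter is shown above, had a log2 change of -0.60 ± 0.08 (adjusted p = 4.89e-09). Zyx, from the same list, was higher (0.84 ± 0.14, adjusted p = 3.63e-07), as was Lima1.

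Among the 12, the smooth muscle actin Acta2 had 6.68 ± 3.99 CPM at 58-62 h and 17.2 ± 8.5 CPM at 16-20 h (-1.38 ± 0.53, adjusted p = 0.0185, r = 0.96 with the stromal sum). Tagln, the smooth muscle relative of Tagln2, had 6.33 ± 2.48 and 12.99 ± 4.22 CPM at these times (-0.99 ± 0.40, adjusted p = 0.0239, r = 0.95). The part of stromal cells in these calls was not tested. The other actin isoforms tested, Acta1, Acta2 and Actg2, were lower at 58-62 h (3 of 3), with none called at 28-32 h (0 of 3, by edgeR), and of 5 paralogs of the tropomyosins, calponins and Tagln2, 3 were lower (Cnn1, Tagln and Tpm2), a call that Tpm2 lost without the 5 libraries that stand apart (adjusted p = 0.0753). Acta1 lay near the floor, at 0.038 ± 0.022 CPM at 58-62 h and 0.185 ± 0.094 CPM at 16-20 h. Actg2 had 0.51 ± 0.27 and 1.53 ± 0.80 CPM at these times.

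Targets of SRF with the ternary complex factors went the other way in the last window. All 8 tested were higher at 58-62 h than at 16-20 h (median 1.06), with 1 exception, Mcl1, under scaling by library size alone (0.10, adjusted p = 0.206). Egr1, a zinc-finger transcription factor, had 3.78 ± 1.13 CPM at 58-62 h and 0.677 ± 0.456 CPM at 16-20 h (2.71 ± 0.24, adjusted p = 8.94e-15). Ier2 had 12.9 ± 2.9 and 6.49 ± 1.06 CPM at these times (1.09 ± 0.10), and Junb 79.5 ± 7.5 and 65.0 ± 5.4 CPM (0.40 ± 0.07). At 28-32 h 3 of the 8 were higher (Ier2, Junb and Mcl1) and 1, Fos, lower (-1.22 ± 0.25). In that window 29.6% of all genes were higher and 28.4% lower.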

How the data were processed

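RNA of 72 libraries (24 time points in 3 courses) was freed of ribosomal RNA and sequenced from both ends, per the labels' protocols. The submitters' processing notes name DRAGEN, HTSeq and GRCm38 (mm10), with versions, annotation and strand setting not given in the sources used here. Raw read counts per gene were deposited by the authors. The 5 closing lines that name no gene held 62.2% to 68.1% of the reads tallied and stayed out of library sizes and tests. No 2 libraries held identical values.

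After filterByExpr and TMM, edgeR 4.0.16 (R 4.3.3, quasi-likelihood F tests) was run with time as 24 levels; windows are means of 3 time points, and rhythm was a 24 h cosine and sine with a straight line. The threshold was a Benjamini-Hochberg adjusted p of 0.05 over 17903 genes. The code was tested on simulated data. Alternatives were DESeq2 1.42.0, other scalings, no filter, a replicate block, leaving out each course or the 5 libraries that stand apart, other trends and other denominators of the share. A library stands apart when its median absolute log2 difference from the mean of the other courses at its time exceeds the upper quartile by over 1.5 interquartile ranges. Exon lengths, overlaps and shared 100-base stretches come from GENCODE M21 (GRCm38) and promoters from RefSeq.

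All 10 genes are named, up to 4 genes per list with the smallest p at 58-62 h against 16-20 h, Srf, Mkl1 and Mkl2, and the 8 genes most like the mean of the 10. The genes most like Actb, Vcl, Zyx, Lima1, Capzb, Arpc1a, Cfl2, Pfn2, Marcks, Myh10, Mcl1, Fos and some smooth muscle genes were named after their values were seen. 1 list and some markers are not reported here. The members and lists were chosen with earlier results of these data known.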

Additional observations from a re-analysis of the deposited data

How the results depend on the processing

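Of the counts over the 10 genes, those against 16-20 h stayed within a factor of 1.5 under each alternative run, except that 1 gene (Cnn2) was higher at 28-32 h without the 5 libraries that stand apart, against 0. The count at 34-38 h against 28-32 h was 2 without the filter on low counts, and 0 to 3 when a course was left out; at 40-44 h against 34-38 h it was 2 without the libraries that stand apart and 0 when any course was left out. The rhythm count of 0 became 1 with the replicate block, 1 without the libraries that stand apart, 2 with a quadratic trend and 9 with no trend term; the cause was not tested. In the added comparison of 58-62 h with 34-38 h, changes near 0 turned sign: Tpm3 with scaling by library size only (-0.0031) and when a course was left out (-0.0096 to 0.047), Tpm4 when a course was left out (-0.21 to 0.022), and Flna with DESeq2's size factors (0.00093), with DESeq2 (0.00093) and when a course was left out (-0.11 to 0.082). Without the mitochondrially encoded genes in the total, the share of Actb was 1.31% at 16 h and 0.530% at 62 h, and that of the 10 genes 1.80% at 16 h, 0.634% at 40 h and 0.752% at 62 h. Over all reads tallied, the share of Actb was 0.428% at 16 h, 0.131% at 40 h and 0.169% at 62 h, and that of the 10 genes 0.589%, 0.195% and 0.239%. Whether course numbers pair the libraries is not settled by these values, and the main fit did not use them. Deviations of same-numbered libraries from their time-point means correlated at -0.481 to 0.646. The median r was 0.094, 0.123 and 0.127 in courses 1, 2 and 3, with r over 0.1 in 129, 154 and 162 of 276 pairs. The replicate block also removed the call of Cnn2 at 60 h against 16 h and changed no other count of calls by over 1.5 times. At the depth of these libraries Cnn2 rests on 91 to 1265 counts, the fewest of the 10 genes.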
